A study of Mus musculus with 5 samples.

Results

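The genes described here encode the enzymes of glycolysis and gluconeogenesis and those that decide the fate of pyruvate. They were chosen by name, as a list of 39 genes, and all 39 were present in both deposited tables, out of 32793 genes in all. Each was read in 5 RNA-seq libraries from whole mouse kidneys at embryonic day 15.5. The 2 NICD_mut libraries came from embryos with the Six2TGC/+ driver, which makes Cre recombinase in nephron progenitors, and RosaN1ICD∆PEST, an allele that gives an activated Notch1 without its PEST domain once Cre has acted. The 3 NICD_wt libraries came from littermates that carried RosaN1ICD∆PEST without Cre, so the Rosa allele was common to both groups. Because only NICD_mut embryos had the driver, what it does and what activated Notch1 does cannot be told apart. Nothing in the labels ties a library to its own animal, so the p-values reflect only the spread among these samples, part of which may be technical.

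Glycolysis splits glucose into pyruvate, and lactate dehydrogenase turns pyruvate into lactate when it is not burned in mitochondria. Gluconeogenesis runs the path backwards, using its own enzymes at the steps that glycolysis cannot reverse. In the kidney it is a property of the proximal tubule, which reabsorbs filtered glucose and also takes up fructose and lactate, whereas growing and dividing cells, nephron progenitors among them, are known for a high rate of glycolysis. Many steps can be made by more than 1 isoform, each at home in different tissues.

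Levels are given as CPM, which scales counts to the library total, or as TPM where genes are compared with each other, since TPM also divides by transcript length. Fold changes are log2 NICD_mut minus NICD_wt with their standard errors (SE), and adjusted p is from the edgeR quasi-likelihood test with Benjamini-Hochberg adjustment over the 15885 genes tested. A gene is said to have risen or fallen only where that adjusted p was under 0.05.

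The libraries held 17361823 to 21356447 counts, and 18253 to 19152 genes had a count in each. NICD_mut 1 stood apart by skeletal muscle transcripts. A list of 10 muscle markers summed to 3581 CPM in NICD_mut 1 and 15.7 in NICD_mut 2, and to 150 CPM in NICD_wt 1, 5.52 in NICD_wt 2 and 5.24 in NICD_wt 3. Where leaving out NICD_mut 1 changes the call of an enzyme, the value without it is given too. A fit with 1 NICD_mut library left holds no spread between NICD_mut libraries, so its calls and p-values rest on the NICD_wt spread. Markers of the cell types that use these enzymes differed between the groups too. The 16 proximal tubule markers summed to 1505 and 1573 CPM in NICD_mut against 703 to 867 in NICD_wt, with 9 higher and 3 lower. Nephron progenitor markers summed to 88.6 and 51.7 CPM against 686 to 705, with 7 of 8 lower, and proliferation genes to 1300 and 1269 CPM against 2022 to 2065, with 9 of 10 lower. Loop of Henle and distal tubule markers summed to 17.7 and 18.7 CPM against 545 to 636, with all 11 that were tested lower. In bulk samples fewer cells of a type and less RNA per cell cannot be told apart, and the part of these shifts in any enzyme's change was not tested.

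Gapdh, Pgk1, Pgam1, Eno1 and Pkm, abundant enzymes that catalyse consecutive steps of the second phase of glycolysis, all fell. Not every abundant enzyme did: Aldoa, Tpi1 and Ldhb, with mean NICD_wt TPM of 616, 567 and 481, did not pass. Pck1, which makes phosphoenolpyruvate for gluconeogenesis, rose. Of the 39 enzymes, 9 rose, 11 fell and 19 did not pass the test. Over all genes tested 47.7% passed, 23.0% as higher and 24.8% as lower, against 51.3% of the enzymes, so the number that changed is near the background and is not particular to them. The groups did not overlap for 22 of the 39 enzymes (56.4%), against 67.2% of all genes. The median log2 fold change was -0.09 over the enzymes and 0.01 over all genes.

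For the comparison of glycolytic isoforms with proximal tubule enzymes, 21 glycolytic isoforms were listed against 7 gluconeogenic and fructose enzymes (Pcx, Pck1, Pck2, Fbp1, G6pc, G6pc3 and Khk). Fbp2, known as the muscle form, was not in the second list. Among the glycolytic isoforms 3 rose (Hk3, Eno2 and Pklr), 8 fell and 10 did not pass, so that 14.3% were higher and 38.1% lower, with a median log2 fold change of -0.22. Among the gluconeogenic and fructose enzymes 3 rose (Pcx, Pck1 and Pck2), Fbp1 fell and 3 did not pass, with a median of 0.36. In this list of 7, 42.9% were thus higher and 14.3% lower. Over all genes tested, 23.0% were higher and 24.8% lower. Summed over the glycolytic isoforms, TPM was 6756 and 5527 in NICD_mut against 7838, 8549 and 8208 in NICD_wt. The sum over the gluconeogenic and fructose enzymes was 190 and 174 TPM in NICD_mut against 123, 147 and 137 in NICD_wt. The groups did not overlap in either sum, and the first was lower and the second higher in NICD_mut, but the glycolytic sum remained far above the gluconeogenic one in every library. The median over the gluconeogenic and fructose enzymes rested on NICD_mut 1, and was -0.03 without it, with 2 higher and 1 lower. With Fbp2 in place of Khk, 4 rose and 1 fell, with a median of 0.43, or 0.31 without NICD_mut 1. That swap takes in a gene that rose (Fbp2, 1.51) and leaves out a gene that did not pass (Khk, -0.03). The median thus depended on which genes were listed.

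**Figure D1:**
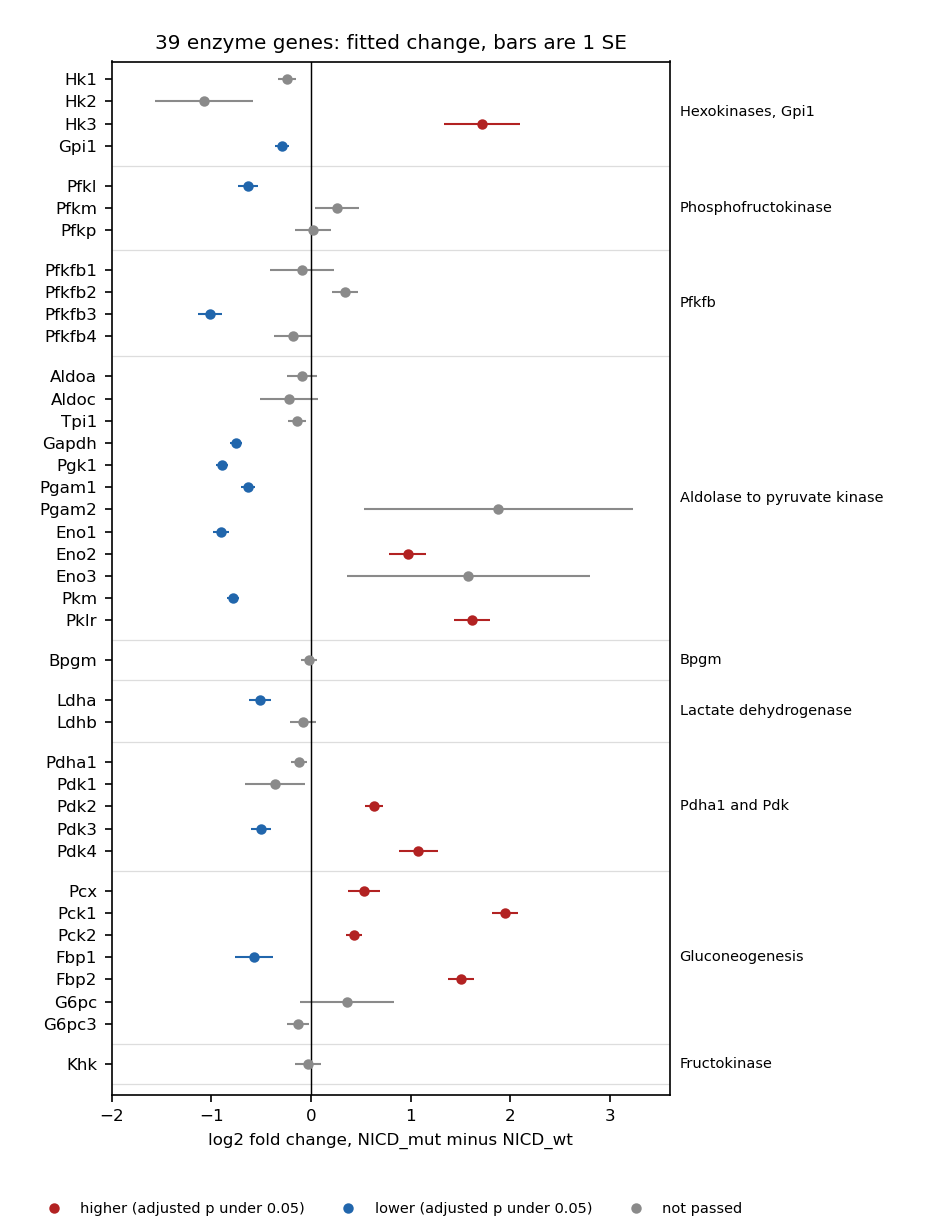
Log2 fold changes (NICD_mut minus NICD_wt, horizontal axis) of the 39 enzymes, ordered by role, with SE as bars and the call as colour. The steps from Gapdh to Pkm lie left of 0 for the main isoforms, Pck1 (1.95) and Fbp2 (1.51) lie to the right, and Pgam2 and Eno3 have by far the widest bars.

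The second phase of glycolysis, from glyceraldehyde phosphate to pyruvate, gives the ATP of the pathway. Gapdh, the dehydrogenase that feeds it, had the highest TPM of the enzymes in NICD_wt kidneys, with a mean of 2621, followed by Eno1 at 1034 and Pkm at 725. Gapdh (chr6:125161715-125166467, minus strand, mm10) was at 1262 and 1086 CPM in NICD_mut and at 1959, 1990 and 1973 CPM in NICD_wt. Both NICD_mut libraries lay well below all NICD_wt libraries, whose own spread was small. The fold change was -0.75 (SE 0.06, adjusted p = 3.16e-05), that is 1.68-fold lower. Gapdh is often used to normalise other genes, and the 2 groups differed in it.

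Pgk1 (chrX:106187100-106203699, plus strand), the kinase of the first ATP-making step, was at 270 and 262 CPM in NICD_mut against 473, 510 and 497 in NICD_wt. The groups were far apart, with a fold change of -0.89 (SE 0.06, adjusted p = 8.08e-06). Pgam1 (chr19:41911923-41918660, plus strand), the mutase that follows it, was at 351 and 321 CPM against 489, 561 and 514. It too was lower in both NICD_mut libraries, by a fold change of -0.63 (SE 0.07, adjusted p = 0.000151). Eno1 (chr4:150236721-150248879, plus strand), the main enolase, was at 527 and 452 CPM against 847, 945 and 941. Its groups did not overlap, and the fold change was -0.90 (SE 0.08, adjusted p = 6.38e-05). Pkm (chr9:59656368-59679375, plus strand), the pyruvate kinase of muscle and of growing tissues, was at 627 and 565 CPM against 978, 1058 and 1026. Both NICD_mut values were below every NICD_wt value, at a fold change of -0.78 (SE 0.06, adjusted p = 2.35e-05). The mouse genome holds near-identical copies of several of these genes, among them Gapdh, Pgk1, Eno1 and also Ldha. The counting divides reads among such copies by estimation, so values of the single genes are uncertain to that extent.

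The promoters of 4 enzymes that fell, and of Fbp2, which rose, are shown for a short element that several glycolytic genes are known to share, the core to which hypoxia-inducible factors bind. Each stretch has 81 bases read 5′ to 3′ along the gene's strand from RefSeq, build GRCm38.p6, upstream of the start that RefSeq gives. GENCODE, from which the gene spans come, puts some starts elsewhere, so the Gapdh and Pfkl stretches lie inside their GENCODE spans and the Fbp2 stretch overlaps its span. Capitals mark ACGTG or GCGTG on either strand, so CACGT and CACGC are the same cores read from the other strand, and the CACGTG of Fbp2 is a match on both.
Pgk1 (chrX:106186933-106187013, plus strand): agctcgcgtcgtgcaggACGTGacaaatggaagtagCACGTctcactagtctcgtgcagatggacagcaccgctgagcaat
Pgam1 (chr19:41911747-41911827, plus strand): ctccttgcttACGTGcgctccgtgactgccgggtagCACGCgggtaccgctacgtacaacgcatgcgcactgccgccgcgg
Gapdh (chr6:125165774-125165854, minus strand): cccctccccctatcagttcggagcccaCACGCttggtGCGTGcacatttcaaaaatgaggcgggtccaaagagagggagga
Pfkl (chr10:78009862-78009942, minus strand): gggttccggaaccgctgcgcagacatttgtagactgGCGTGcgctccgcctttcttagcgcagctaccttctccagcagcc
Fbp2 (chr13:62858401-62858481, minus strand): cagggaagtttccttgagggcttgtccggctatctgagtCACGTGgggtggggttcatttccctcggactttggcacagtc

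All 39 enzymes matched RefSeq promoter windows of 300 bases, 250 before and 50 after each start, with 60 windows in all. The core was found in 66.7% of these windows, against 43.8% of all 32851 windows. By gene, counting any window, it was present in 9 of the 11 enzymes that fell and in 6 of the 9 that rose. It was also present in 15 of the 19 that did not pass, that is, in most enzymes of each kind. By this count 76.9% of the enzymes had it, against 46.7% of all genes. The enzymes' windows were richer in G and C (median 57.3% against 52.7%) and in CpG pairs (median 14 against 7), and both cores hold a CpG. The part of base composition in the difference was not tested. The core of the Notch partner Rbpj, GTGGGAA or ATGGGAA on either strand, was in 8.33% of the enzymes' windows and in 11.2% of all windows. The Hnf4a motif CAAAGTCCA, on either strand, was in 0 of the 60 windows and in 0.475% of all windows, and the palindromic Hnf1 motif was in 0 of 60 and in 0.00913%. The single Pck1 window held none of these letters. The hypoxia and Rbpj cores can overlap, since both may hold the same GTG. A match describes letters in a window, not binding.

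**Figure D2:**
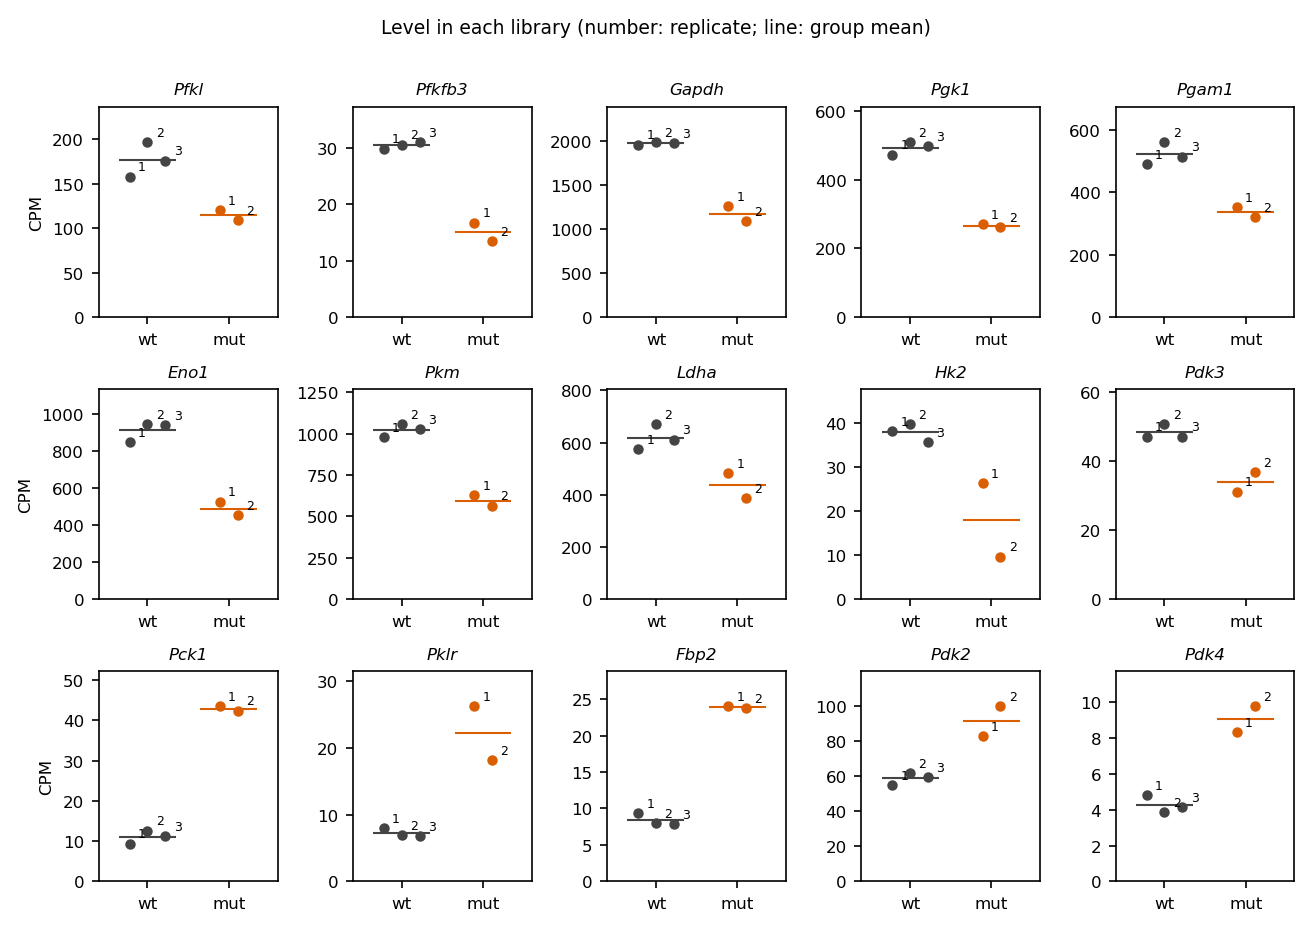
CPM in each library (vertical axis) for 15 enzymes, with numbered points for libraries and lines for group means, NICD_wt and NICD_mut side by side. Gapdh sits at 1959 to 1990 CPM in NICD_wt and at 1262 and 1086 in NICD_mut, and Pck1 sits at 9.36 to 12.6 and at 43.5 and 42.4.

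Enzymes of the first phase, which prepares and splits the sugar, changed less evenly. Hk1, the hexokinase of most tissues, was at 98.2 and 85.4 CPM in NICD_mut against 98.1, 117 and 111 in NICD_wt, so the groups touched. Its fold change of -0.24 (SE 0.09) did not pass (adjusted p = 0.0566). It was lower by the test without NICD_wt 1 (-0.31, adjusted p = 0.0323) and with no filter (-0.26, adjusted p = 0.0301). It did not pass without NICD_wt 2 (-0.18, adjusted p = 0.17) or NICD_wt 3 (-0.23, adjusted p = 0.156). With the replicate block it did not pass either (-0.23, adjusted p = 0.212). The fold change was -0.35 without NICD_mut 1 and -0.15 without NICD_mut 2. Hk2, the inducible hexokinase of muscle and proliferating cells, was at 26.3 and 9.67 CPM against 38.1, 39.7 and 35.7. Both NICD_mut libraries were lower, but they differed so much from each other that the fold change of -1.07 (SE 0.49) did not pass (adjusted p = 0.165). Without NICD_mut 1 the fold change of Hk2 was -1.97, and without NICD_mut 2 it was -0.54. The direction was the same in both, and the size differed by more than 1.5 times.

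Hk3, the hexokinase of white blood cells, was rare, at 3.75 and 3.11 CPM in NICD_mut and at 0.705, 1.36 and 1.04 CPM in NICD_wt. It was higher in both NICD_mut libraries, with a fold change of 1.72 (SE 0.38, adjusted p = 0.00486). The 10 macrophage markers, of which 9 rose, summed to 225 and 209 CPM in NICD_mut against 80.4 to 89.7 in NICD_wt; their part in the rise of Hk3 was not tested. Gpi1, the isomerase that follows hexokinase, was at 325 and 291 CPM against 370, 394 and 365. It fell by 0.29 on the log2 scale (SE 0.07, adjusted p = 0.00685) with groups that did not overlap, but on log2(TPM + 1) in limma its value of -0.15 did not pass (adjusted p = 0.171).

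Phosphofructokinase commits the sugar to glycolysis, and its 3 isoforms form mixed tetramers. Pfkl (chr10:77986947-78010083, minus strand), the liver type, was at 120 and 109 CPM in NICD_mut against 158, 197 and 176 in NICD_wt. It was lower in both NICD_mut libraries, at a fold change of -0.63 (SE 0.10, adjusted p = 0.000915). Pfkm, the muscle type, was at 98.9 CPM in NICD_mut 1 and 60.7 in NICD_mut 2, on both sides of the 63.5, 69.0 and 67.3 of NICD_wt. The fold changes of Pfkm (0.26, SE 0.22, adjusted p = 0.401) and of the platelet type Pfkp (0.02, SE 0.18, adjusted p = 0.954) did not pass. Without NICD_mut 1 the fold change of Pfkp was -0.35 and that of Pfkm was -0.14. Without NICD_mut 2 that of Pfkm was 0.56. Pfkl made up 41.2% and 51.5% of phosphofructokinase TPM in NICD_mut against 59.2%, 61.7% and 61.0% in NICD_wt, and Pfkm 45.0% and 37.9% against 31.5%, 28.7% and 30.7%.

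The bifunctional Pfkfb enzymes make and remove the fructose bisphosphate that activates phosphofructokinase and restrains gluconeogenesis. Pfkfb3, the isoform with the strongest bias towards making it, was at 16.7 and 13.5 CPM in NICD_mut against 29.8, 30.5 and 31.0 in NICD_wt. It was about 1 log2 unit lower in both NICD_mut libraries, at -1.01 (SE 0.12, adjusted p = 0.000188). Pfkfb2, the heart and kidney isoform, was at 23.5 and 22.3 CPM against 17.2, 16.3 and 20.8. Its groups did not overlap, but 0.34 (SE 0.13) did not pass (adjusted p = 0.0596). It was higher by the test without NICD_wt 3 (0.45, adjusted p = 0.0302) and with the stricter filter (0.36, adjusted p = 0.0462). The same held with the replicate block (0.45, adjusted p = 0.0462) and in limma on log2(TPM + 1) (0.46, adjusted p = 0.0373). It did not pass without NICD_wt 1 (0.30, adjusted p = 0.165) or NICD_wt 2 (0.27, adjusted p = 0.167), or with no filter (0.32, adjusted p = 0.0718). By TPM the leading isoform of the family was Pfkfb3 in NICD_wt, with 44.4%, 46.4% and 43.8%, and Pfkfb2 in NICD_mut, with 35.4% and 41.7%. Pfkfb1 and Pfkfb4 were low, with mean CPM of 2.26 and 10.1 in NICD_wt, and did not pass.

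Aldolase and triose phosphate isomerase, which make and interconvert the trioses, stand directly before Gapdh. Aldoa was at 546 CPM in NICD_mut 1 and 392 in NICD_mut 2, against 486, 532 and 482 in NICD_wt. Tpi1 was at 494 and 404 CPM against 476, 518 and 486. For both genes NICD_mut 1 lay inside or above the NICD_wt range and NICD_mut 2 below it, and neither passed (Aldoa -0.09, SE 0.15; Tpi1 -0.14, SE 0.09). Without NICD_mut 1, Aldoa was at -0.35 and Tpi1 at -0.29. Aldoc, the brain aldolase, had a mean of 4.26 CPM in NICD_wt and did not pass, and neither did Bpgm, the red cell enzyme that makes bisphosphoglycerate, at 45.8 against 46.3 CPM in the means. Erythroid markers summed to 10212 and 11370 CPM in NICD_mut against 4495 to 5814 in NICD_wt, with 4 of 8 higher.

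The muscle isoforms Eno3 and Pgam2 were highest in the library with the most muscle transcripts. Eno3, the muscle enolase, was at 103 CPM in NICD_mut 1 and 7.25 in NICD_mut 2, against 19.4, 16.6 and 19.4 in NICD_wt. Pgam2, the muscle mutase, was at 36.5 and 1.82 CPM against 6.39, 5.10 and 4.14. In both genes NICD_mut 1 was the highest library and NICD_mut 2 the lowest, and neither fold change passed (Eno3 1.58, SE 1.22, adjusted p = 0.376; Pgam2 1.88, SE 1.35, adjusted p = 0.344). Without NICD_mut 1 both were lower in NICD_mut, Eno3 at -1.35 and Pgam2 at -1.51. Without NICD_mut 2 both were higher, Eno3 at 2.48 and Pgam2 at 2.79. With 1 NICD_mut library left, that library is assumed to vary like the NICD_wt group. The direction of these 2 genes thus depended on which NICD_mut library was used. NICD_wt 1, with a muscle marker sum of 150 CPM, had the same Eno3 level as NICD_wt 3, with a sum of 5.24. Its Pgam2 level was the highest of the NICD_wt libraries, at 6.39 CPM against 5.10 and 4.14. The part of muscle RNA in the NICD_mut 1 values was not tested.

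**Figure D3:**
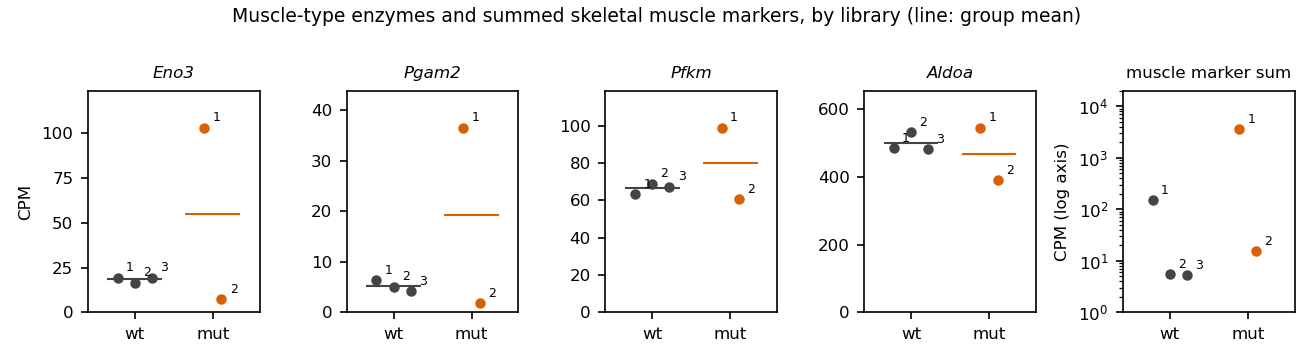
CPM in each library (vertical axis, linear for the genes and log for the marker sum) of Eno3, Pgam2, Pfkm and Aldoa and of the summed muscle markers, with points numbered by library and lines at group means. NICD_mut 1 is the highest point in every panel, at 3581 CPM for the marker sum, and NICD_mut 2 is the lowest in the 4 gene panels.

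The same split moved the counts of the whole set. Without NICD_mut 1, 15 of the 21 glycolytic isoforms were lower and 3 higher, with a median log2 fold change of -0.44, where 23.1% of all genes were lower and 21.4% higher. Without NICD_mut 2, 10 were lower and 6 higher, where 25.5% of all genes were lower and 23.3% higher. The 8 that fell with all libraries (Gapdh, Pgk1, Pgam1, Eno1, Pkm, Pfkl, Gpi1 and Ldha) kept negative fold changes either way. So did some that did not pass with all libraries, such as Hk2 (-1.97 without NICD_mut 1 and -0.54 without NICD_mut 2). Outside the 21, Pfkfb3 and Pdk3 kept negative fold changes too.

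Enolase and pyruvate kinase each had a minor isoform that moved against the main one. Eno2, the neuronal enolase, was at 17 and 12 CPM in NICD_mut against 6.85, 8.19 and 7.13 in NICD_wt. It was higher in both NICD_mut libraries, at 0.97 (SE 0.19, adjusted p = 0.00242). Pklr (chr3:89136142-89146784, plus strand), the pyruvate kinase of liver, red cells and proximal tubule, was at 26.2 and 18.1 CPM against 8.0, 6.88 and 6.73. Its groups were far apart, with a fold change of 1.62 (SE 0.18, adjusted p = 0.000126). Pklr still made up only 3.63% and 2.80% of pyruvate kinase TPM in NICD_mut, against 0.734%, 0.580% and 0.590% in NICD_wt. Eno2 likewise made up 1.47% and 1.46% of enolase TPM against 0.443%, 0.469% and 0.383%. Both were minor isoforms in every library. The erythroid sums given above were higher in NICD_mut, as were the sums of proximal tubule markers, and 7 liver markers summed to 137 and 140 CPM against 57.4 to 95.8, with 2 of the 6 tested higher; the part of each in the rise of Pklr was not tested.

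Lactate dehydrogenase is built from the Ldha subunit, which favours making lactate, and the Ldhb subunit, which favours using it. Ldha (chr7:46841475-46855627, plus strand) was at 484 and 388 CPM in NICD_mut against 576, 671 and 612 in NICD_wt. It was lower in both NICD_mut libraries, at -0.51 (SE 0.11, adjusted p = 0.0093). Ldhb was at 260 and 352 CPM against 319, 336 and 313, with NICD_mut libraries on both sides of the NICD_wt range, and -0.08 (SE 0.13) did not pass (adjusted p = 0.659). Ldhb made up 41.4% and 54.4% of the pair's TPM in NICD_mut against 42.0%, 40.0% and 40.3% in NICD_wt. The first NICD_mut share lay within the NICD_wt range and the second above it. The fold change of Ldhb was -0.32 without NICD_mut 2 and 0.12 without NICD_mut 1.

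Pyruvate dehydrogenase commits pyruvate to the mitochondria, and the Pdk kinases switch it off. Pdha1, its catalytic subunit on the X chromosome, was at 203 and 168 CPM in NICD_mut against 195, 202 and 208 and did not pass (-0.12, SE 0.08, adjusted p = 0.269). Without NICD_mut 1 the fold change of Pdha1 was -0.26. Pdk2 (chr11:95026258-95041354, minus strand), a widely expressed kinase, was at 82.5 and 99.6 CPM against 54.9, 61.7 and 59.4. It rose, by a fold change of 0.63 (SE 0.09, adjusted p = 0.00052). Pdk4, the kinase of fasting and fat burning, was at 8.35 and 9.77 CPM against 4.83, 3.88 and 4.14, a rise of 1.08 (SE 0.20, adjusted p = 0.00216). Pdk3 was at 31.1 and 36.8 CPM against 47.0, 50.6 and 47.0 and fell, at -0.50 (SE 0.10, adjusted p = 0.00233). Groups did not overlap for Pdk2, Pdk3 or Pdk4. Pdk1, the isoform that hypoxia induces, was at 52.6 and 29.2 CPM against 47.5, 59.9 and 50.2 and did not pass (-0.36, SE 0.30, adjusted p = 0.384). The fold change of Pdk1 without NICD_mut 1 was -0.85. Pdk2 made up 55.7% and 61.9% of the family's TPM in NICD_mut against 41.2% to 43.4% in NICD_wt, and Pdk3 24.2% and 26.3% against 39.1% to 40.5%.

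Gluconeogenesis starts from pyruvate carboxylase and phosphoenolpyruvate carboxykinase. Pck1 (chr2:173153048-173159273, plus strand), the cytosolic carboxykinase and a classic proximal tubule gene, was at 43.5 and 42.4 CPM in NICD_mut against 9.36, 12.6 and 11.2 in NICD_wt. The NICD_mut libraries were nearly equal and far above every NICD_wt library, with a fold change of 1.95 (SE 0.13, adjusted p = 9.77e-06), that is 3.87-fold higher. Proximal tubule markers summed to 1505 and 1573 CPM in NICD_mut against 703 to 867 in NICD_wt. Liver markers summed to 137 and 140 CPM against 57.4 to 95.8. The part of either in the rise of Pck1 was not tested. Pck2 (chr14:55540266-55551242, plus strand), the mitochondrial form, was at 66.7 and 75.1 CPM against 51.5, 51.2 and 55.6. It was higher in both NICD_mut libraries by a smaller amount, 0.43 (SE 0.08, adjusted p = 0.00198). Pck1 made up 45.9% and 42.2% of the pair's TPM in NICD_mut against 19.1%, 24.4% and 20.7% in NICD_wt. Pcx, pyruvate carboxylase, was at 108 and 81.6 CPM against 56.9, 73.2 and 66.7. Its groups did not overlap, and it rose by 0.53 (SE 0.16, adjusted p = 0.0368). This call rested on NICD_mut 1, NICD_wt 1 and NICD_wt 3: without them in turn the adjusted p was 0.083, 0.0631 and 0.0883, at fold changes of 0.31, 0.44 and 0.54.

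Fructose-bisphosphatase undoes the phosphofructokinase step, and its 2 genes went opposite ways. Fbp1 (chr13:62864753-62888282, minus strand), the liver and proximal tubule form, was at 13.8 and 11 CPM in NICD_mut against 15.7, 23.1 and 16.6 in NICD_wt. Both NICD_mut libraries were below all NICD_wt libraries, and Fbp1 fell by 0.57 on the log2 scale (SE 0.19, adjusted p = 0.0397). The call was lost without NICD_mut 2 (-0.43, adjusted p = 0.14), NICD_wt 2 (-0.38, adjusted p = 0.114) or NICD_wt 3 (-0.64, adjusted p = 0.0639), and on log2(TPM + 1) (-0.41, adjusted p = 0.14). Fbp2 (chr13:62836877-62858422, minus strand), known as the muscle form, was at 24.0 and 23.8 CPM against 9.31, 7.95 and 7.88. The 2 NICD_mut libraries were almost equal, and the fold change was 1.51 (SE 0.13, adjusted p = 3.71e-05). Muscle markers summed to 3581 and 15.7 CPM in the same libraries. The part of muscle RNA in the rise of Fbp2 was not tested. Fbp2 made up 67.1% and 71.8% of the pair's TPM in NICD_mut against 41.1%, 29.0% and 35.8% in NICD_wt. The genes are neighbours, with 6331 bases between their annotated spans.

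The last step releases free glucose. G6pc, the glucose phosphatase of liver and kidney, was barely detected, at 2.20 and 0.937 CPM in NICD_mut against 1.31, 0.936 and 1.44 in NICD_wt. The groups overlapped and 0.36 (SE 0.47) did not pass (adjusted p = 0.561), so no difference was shown at these low levels. The fold change of G6pc was -0.38 without NICD_mut 1 and 0.84 without NICD_mut 2. G6pc3, the form made in all tissues, was at 22.5 against 24.5 CPM in the means and did not pass either. Khk, ketohexokinase, which starts fructose breakdown, was at 15.4 and 14.8 CPM against 13.6, 16.6 and 16.1. Its groups overlapped, and the fold change was -0.03 (SE 0.13, adjusted p = 0.871).

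**Figure D4:**
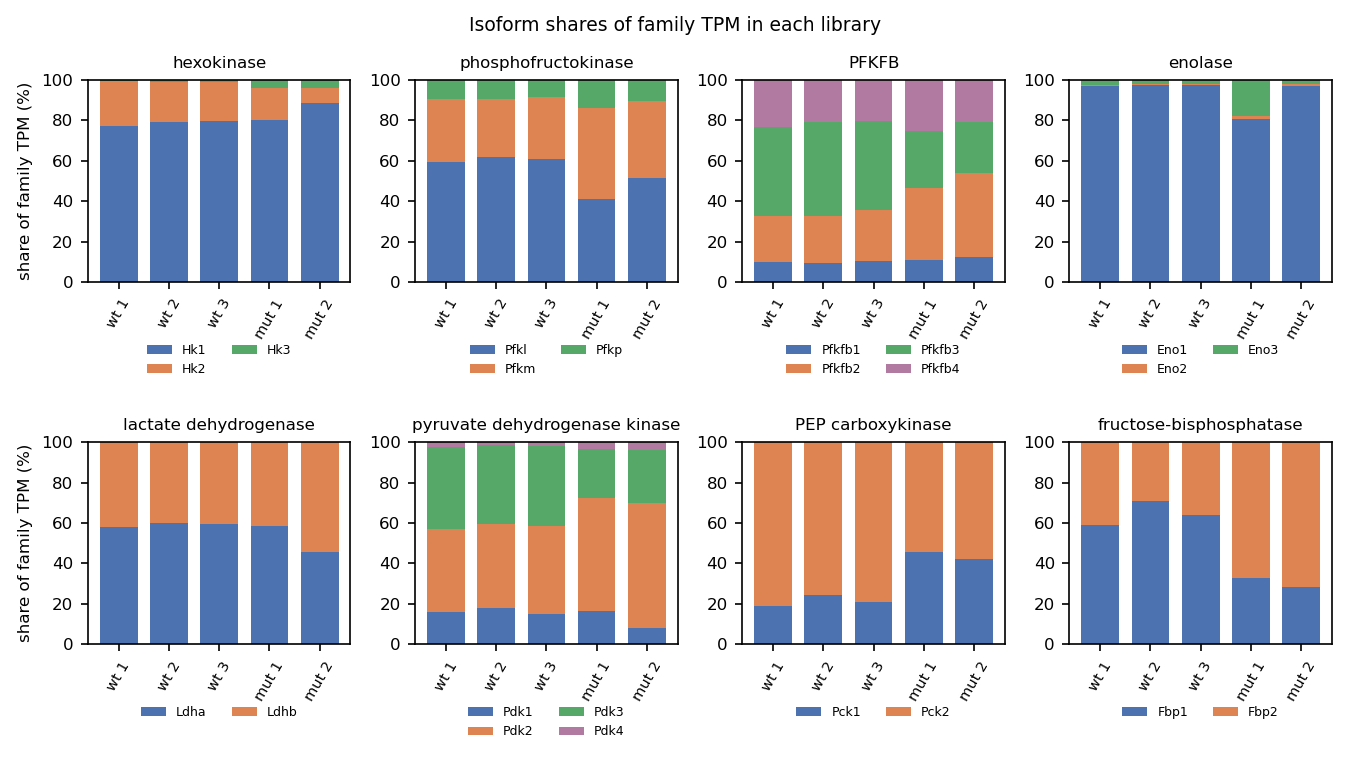
Share of each isoform in its family's summed TPM (percent, vertical axis), by library, for 8 families, as stacked bars that add up to 100%. Pfkfb2, Pdk2, Pck1 and Fbp2 take larger shares in both NICD_mut libraries than in any NICD_wt library, whereas Eno3 does so only in NICD_mut 1, with 17.7%.

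By CPM the groups did not overlap for 67.2% of all genes tested, so separation of the groups was common and is not particular to these enzymes. Shares were compared for 29 isoforms in 11 families, and 20 did not overlap between the groups. In an exact two-sided permutation test each of these had p = 0.1, the smallest that 2 against 3 libraries allow, and 0.145 after Benjamini-Hochberg adjustment over the 29. The design cannot reach 0.05 in this test. Shares within a family add up to 100%, so isoforms of a pair are the same comparison.

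Glucose and lactate carriers flank these enzymes. Of 18 transport genes 4 rose (22.2%, against 23.0% of all genes) and 7 fell (38.9%, against 24.8%), with a median of -0.26. Slc2a1, the widespread glucose carrier, fell from 79.4, 93.4 and 85.9 CPM in NICD_wt to 60.6 and 57.5 in NICD_mut (-0.55, SE 0.08, adjusted p = 0.000592). Slc5a2, the sodium glucose carrier of the early proximal tubule, was higher, at 21.8 and 23.0 CPM against 6.67 to 8.21 (1.6, SE 0.14). Slc5a1, that of the late proximal tubule, was lower, at 3.28 and 2.17 CPM against 16.4 to 21.5 (-2.78, SE 0.22), and so was the lactate carrier Slc5a8, at 2.25 and 3.06 CPM against 22.7 to 29.4 (-3.34, SE 0.20). The groups did not overlap for any of these 4 carriers. Chosen after their values were seen, the basolateral carrier Slc2a2 rose by 1.22 (SE 0.11) and the lactate carrier Slc16a1 fell, at -1.02 (SE 0.09).

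Of 5 fructose and polyol genes that stand beside Khk, 4 rose, where 23.0% of all genes did, and 1 did not pass, with a median of 0.95. Tkfc, the triose kinase of fructose breakdown, was at 134 and 136 CPM in NICD_mut against 59.4, 63.5 and 62.0 in NICD_wt (1.13, SE 0.06). It was higher in each NICD_mut library than in any NICD_wt library, as was the glycerate kinase Glyctk (0.75, SE 0.11). Of 7 further pyruvate dehydrogenase genes 5 fell (71.4%, against 24.8% of all genes), among them the subunits Pdhb (-0.30, SE 0.06) and Pdhx (-0.41, SE 0.08) and the activating phosphatase Pdp2 (-0.39, SE 0.11). The count was 3 without NICD_mut 1 or any 1 of the NICD_wt libraries and with the replicate block, and 2 on log2 TPM.

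Regulators of the pathway were mixed, with 7 higher (38.9%) and 6 lower (33.3%) of 18, where 23.0% and 24.8% of all genes were. Myc, which activates glycolytic genes, was at 46.2 and 44.7 CPM in NICD_mut against 79.7, 73.3 and 80.7 and fell, at -0.78 (SE 0.07). Mlxipl, the sugar-sensing factor known for acting on Pklr, was at 12.6 and 14.8 CPM against 4.89 to 5.99 and rose by 1.34 (SE 0.17), and Txnip, which limits glucose uptake, rose by 0.87 (SE 0.07). Hif1a, a hypoxia-inducible subunit, was not called (-0.12, SE 0.06, adjusted p = 0.162). Chosen after their values were seen, Epas1, another such subunit, rose by 1.12 (SE 0.15, adjusted p = 0.00227). Arnt, the partner of both, rose by 0.36 (SE 0.07, adjusted p = 0.00207). Hypoxia targets outside glycolysis had no common direction, with 2 higher (11.1%), 4 lower (22.2%) and 12 not passed of 18. Without any 1 of the NICD_wt libraries 1 was higher, and without NICD_mut 2, 3 were. Ndrg1 rose by 2.46 (SE 0.07) and Ak4, the mitochondrial adenylate kinase, fell, at -1.81 (SE 0.11). Transcript levels do not measure the activity of these regulators.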

How the data were processed

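Whole kidneys at embryonic day 15.5 were measured by bulk RNA-seq in 2 NICD_mut and 3 NICD_wt libraries. The values used are the authors' deposited estimated counts and, for the same libraries, their deposited TPM. Both were made with Bowtie2 and RSEM on mm10, per the submitters' processing notes. Versions, annotation and strand were not given in the sources used here. Reads of near-identical genes are divided by estimation. The deposited counts were whole numbers, so no rounding was needed.

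Counts were scaled with TMM factors (0.9964 to 1.0054) and filtered with filterByExpr (minimum count 10, total 15), which all 39 enzymes passed. The 15885 genes left were tested with the edgeR 4.0.16 quasi-likelihood test in R 4.3.3, NICD_mut against NICD_wt, and p-values were adjusted by Benjamini-Hochberg, with 0.05 as the threshold. Scripts were tested on simulated data. Alternatives were DESeq2 1.42.0 (size factors and Wald test), library size alone, no filter, a stricter filter (50 counts in 2 libraries), limma 3.58.1 on log2(TPM + pseudocount of 1 or 0.1), a replicate block, each library left out, and NICD_mut 1 and NICD_wt 1 left out together. Isoform shares are percent of the family's TPM. Python 3.11.15 with matplotlib 3.10.9 drew the figures.

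The enzymes and lists were chosen with earlier results of these data known. Values per library are printed for enzymes past the threshold with an absolute log2 fold change of at least 0.5 and for a fixed set of others; further enzymes whose values are printed were chosen after their values were seen. From each related list the 3 genes with the smallest adjusted p are named, except 1 that is not reported here. Summed CPM of further marker lists, in NICD_mut against NICD_wt, was 392 and 321 against 631 to 662 for ureteric bud (1 higher and 7 lower of 8), 1085 and 1247 against 693 to 756 for endothelium (8 of 8 higher) and 1508 and 2156 against 856 to 907 for podocytes (7 higher and 1 lower of 8). Coordinates are 1-based, from GENCODE vM21 (mm10), and none is given for Aldoa, which has more than 1 record there.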

Additional observations from a re-analysis of the deposited data

How the results depend on the processing

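Of the 20 enzymes that passed the test, 17 kept their call under all 14 alternatives and 0 changed sign. The exceptions were Gpi1, Pcx and Fbp1. Gpi1 missed the threshold on log2(TPM + 0.1) too (-0.16, adjusted p = 0.17). Pcx did so without the filter (0.52, adjusted p = 0.0668), and Fbp1 on log2(TPM + 0.1) (-0.43, adjusted p = 0.135). With the replicate block, 9 enzymes were higher and 10 lower: Pcx (0.54, adjusted p = 0.187) and Fbp1 (-0.62, adjusted p = 0.0969) were lost and Pfkfb2 (0.45, adjusted p = 0.0462) was gained. Residuals of same-numbered libraries correlated at 0.34 and 0.149, but those of NICD_mut 2 and NICD_wt 3 correlated at 0.234. With 2 NICD_mut libraries, the residuals of each mirror those of the other, so these values cannot show pairing. Only 2 numbers were shared, and same-numbered libraries were not taken as pairs. Across 60 genes and 14 settings, 759 of 838 values kept direction and call, 35 changed sign, 24 gained and 20 lost a call.

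Leaving out libraries in turn gave 10 to 20 lower enzymes, a median of -0.35 to -0.01, 3 to 6 higher and 8 to 15 lower glycolytic isoforms (median -0.44 to -0.10), 0 to 1 lower gluconeogenic enzymes (median -0.03 to 0.46) and 20 to 26 non-overlapping shares. Without NICD_mut 1 and NICD_wt 1 together, 19 enzymes were lower (median -0.36), 14 glycolytic isoforms were lower (median -0.52) and the gluconeogenic median was -0.06. On log2 TPM with pseudocounts of 1 and 0.1, the glycolytic median was -0.05 and -0.07 and 0 gluconeogenic enzymes were lower, as with the block. That scale moved the median of all genes to 0.111 and 0.129, from 0.013.

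Values that changed sign were, without NICD_mut 1 and NICD_wt 1, Pfkm -0.17, Pfkp -0.38, Pgam2 -1.35, Eno3 -1.32, Bpgm 0.09, Ldhb 0.11 and G6pc -0.33; with the block, Pfkp -0.04, Pfkfb1 0.02 and Khk 0.01; on log2 TPM (pseudocounts 1 and 0.1), Pfkfb1 0.03 and 0.04, Aldoa 0.01 and 0.01, Bpgm 0.10 and 0.11, Ldhb 0.02 and 0.02 and Khk 0.07 and 0.07; with the stricter filter, Bpgm 0.01. Over left-out libraries, ranges crossed 0 for Pfkm (-0.14 to 0.56), Pfkp (-0.35 to 0.30), Pfkfb1 (-0.20 to 0.02), Pfkfb4 (-0.42 to 0.01), Aldoa (-0.35 to 0.12), Pgam2 (-1.51 to 2.79), Eno3 (-1.35 to 2.48), Bpgm (-0.09 to 0.05), Ldhb (-0.32 to 0.12), G6pc (-0.38 to 0.84) and Khk (-0.11 to 0.02), and, as share differences in percentage points, for Pfkfb4 (-0.769 to 3.75), Aldoa (-0.0158 to 0.0538), Aldoc (-0.0538 to 0.0158), Pgam1 (-17.6 to 1.01), Pgam2 (-1.01 to 17.6), Eno3 (-0.406 to 15.5) and Pdk1 (-8.36 to 0.213). The cause was not tested. G6pc and Pfkfb1 gave no value under the stricter filter.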

Other observations

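Glycogen and pentose phosphate genes branch off at glucose phosphate and were read beside the enzymes above. Of 12 glycogen genes 5 rose and Gbe1, the branching enzyme, fell, at -0.47 (SE 0.11, adjusted p = 0.00669), with a median of 0.17 (41.7% higher, against 23.0% of all genes). The count of 5 rested on single libraries: 2 were higher without NICD_mut 1, NICD_wt 1 or NICD_wt 3 and with the replicate block, and 8 without NICD_mut 2. With library size alone or no filter 3 were higher, and 3 were lower without NICD_mut 1. Gaa, the lysosomal glucosidase that digests glycogen, was at 192 and 195 CPM in NICD_mut against 108, 120 and 105 in NICD_wt (0.81, SE 0.07, adjusted p = 4.2e-05). Ugp2, which makes the sugar nucleotide for glycogen, was at 119 and 109 CPM against 87.6 to 89.9 (0.36, SE 0.06, adjusted p = 0.00139). Groups did not overlap for these 3 genes.

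Of 8 pentose phosphate genes 1 rose and 5 fell (62.5%, against 24.8% of all genes), with a median of -0.27. Only 3 were lower without NICD_mut 2, NICD_wt 1 or NICD_wt 3, with the replicate block and on log2 TPM, and without NICD_mut 2 and on log2 TPM 2 were higher. The riser was H6pd, which runs the first steps inside the endoplasmic reticulum, at 124 and 122 CPM in NICD_mut against 84.5, 86.4 and 72.7 in NICD_wt (0.60, SE 0.08, adjusted p = 0.000328). Taldo1, the transaldolase, fell at -0.32 (SE 0.06, adjusted p = 0.00274), and Pgls, the lactonase of the cytosol, at -0.35 (SE 0.07, adjusted p = 0.00329).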
